A study of Mus musculus with 8 samples.

Results

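The inhibitor of DNA binding (ID) genes Id1, Id2, Id3 and Id4 and the genes of their E-protein partners, Tcf3, Tcf4 and Tcf12, were followed through 8 polyadenylated RNA libraries of mouse embryos. These 7 genes, of 19058 in the deposited table of normalized abundance, were found by matching Ensembl gene identifiers to symbols. The set was chosen by the values of Id2 and Tcf4, which were lower after both targets had been knocked down, so the comparison of the double knockdown with the control is given here as a description, without a test. Zygotes had received small interfering RNA (siRNA) by injection, and the embryos were late morulae taken 78 h past fertilization. The control received a non-specific siRNA, the Rbbp4 knockdown an siRNA against Rbbp4, the Rbbp7 knockdown an siRNA against Rbbp7, and the double knockdown siRNA against both genes. Each group had 2 libraries of whole embryos. Strain, genotype and the number of embryos behind a library were not stated. Whether the 2 libraries of a group came from different pools of embryos is not stated either, so errors and p-values cover the spread between libraries, which may be technical. Rbbp4 and Rbbp7 encode related histone-binding proteins that are shared by several chromatin complexes, and the series title concerns their overlapping functions in preimplantation development.

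E proteins are basic helix-loop-helix transcription factors that bind the E-box, a short DNA motif, as dimers with each other or with tissue-restricted partners. ID proteins carry the helix-loop-helix dimerization domain but no basic DNA-binding region, so an E protein held by an ID protein cannot bind DNA. Id1, Id2 and Id3 are known targets of bone morphogenetic protein (BMP) signalling through SMAD transcription factors, and Id2 is known as an early gene of the trophectoderm, the outer lineage that forms the placenta.

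Motifs of these 2 kinds of input were looked for in the RefSeq sequence (GRCm38.p6) of the 250 bases before each transcript start, because the E-box is the site E proteins bind and GGCGCC is a GC-rich element through which SMADs act on ID genes. RefSeq windows were used for 5 of the 7 members, Id2, Id3, Id4, Tcf3 and Tcf12, with 7 windows in all. An E-box, CANNTG, stood in 4 of these windows and GGCGCC in 2. Both motifs read the same on either strand. Stretches of 30 bases around matches are shown 5′ to 3′ on the gene's strand, with the motif in capitals.
Id2 E-box, chr12:25096271-25096300, minus strand: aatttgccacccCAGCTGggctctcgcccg
Id2 GGCGCC, chr12:25096306-25096335, minus strand: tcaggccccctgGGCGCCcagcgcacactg
Id4 GGCGCC, chr13:48260956-48260985, plus strand: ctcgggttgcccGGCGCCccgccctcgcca
Tcf3 E-box, chr10:80433672-80433701, minus strand: agtgggcgtggtCACTTGggggcgtggctt
Tcf12 E-box, chr9:72112040-72112069, minus strand: agatgctgccCAGCTGcgtccccgtcgcgg
The Id2 matches began 196 and 231 bases before the RefSeq start and lay in an intron of a longer GENCODE transcript of Id2. The Tcf3 and Tcf12 matches shown lay upstream of the annotated gene, and the Id4 match lay in the introns of 2 antisense long noncoding RNAs. The Id3 window held neither motif. An E-box was present in 66.2% of 32851 RefSeq windows of the same length, CAGCTG, the form in the Id2 and Tcf12 windows shown, in 13%, and GGCGCC in 9.59%. Other SMAD motifs were looked for as well. GCCGCC stood in 4 of the 7 member windows, of Id4, Tcf3 and Tcf12, and in 18.5% of all windows. It was absent from the Id2 and Id3 windows. GTCTAGAC stood in 0 of the 7 and in 0.167% of all windows. These are matches of letters and not measured binding sites.

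Values are normalized abundances per gene, on the authors' scale between libraries. Column totals ranged from 11334107 to 12011829, and tests covered the 12565 genes whose mean across libraries reached 10. The siRNA targets were low in the libraries labelled for them, Rbbp4 at a log2 change of −3.75 ± 0.15 in its own knockdown and −3.68 ± 0.15 in the double knockdown, and Rbbp7 at −4.71 ± 0.14 and −4.72 ± 0.14 (standard errors, limma). Control replicate 1 stood apart, with 3937 genes at 0, where the others had 2644 to 3237, and with 6.21% mitochondrial signal, where they had 4.26% to 5.53%. Comparisons with the control are therefore also given without it for the tested members and for most of the list genes and medians. Pou5f1, Cdx2, Nanog, Gata3 and Tfap2c, genes of the early embryo's lineages, were above the filter, and Cdx2 ranged from 1195 to 2869. Protamine genes of sperm, Prm1 and Prm2, were at most 3.68 in any library. Of 5 sperm markers with values, only Odf2 was above the filter, and it ran from 1153 to 1838. Of 10 oocyte markers 5 were above the filter, and the list summed to between 110 and 195 per library. The source of the Odf2 and oocyte marker signal was not tested.

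Among the ID genes, Id2 was lower wherever Rbbp7 siRNA had been injected, while Id3, its close relative, was not. Id2 (ENSMUSG00000020644, chr12:25093799-25097140, minus strand, GRCm38) stood at 330 and 296 in the control libraries, 248 and 270 after Rbbp4 knockdown, 145 and 132 after Rbbp7 knockdown and 108 and 93.8 after the double knockdown. All 4 libraries with Rbbp7 siRNA lay below all 4 without it, as for 3.43% of all genes, and the groups did not overlap with each other. The share of genes with all groups apart was not counted, and a double knockdown below the control is what chose Id2. The group means were 313 ± 24.5, 259 ± 15.8, 139 ± 9.15 and 101 ± 10.4 (SD, n = 2 each), so that the knockdown groups kept 82.7%, 44.3% and 32.3% of the control mean.

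Id3 (ENSMUSG00000007872, chr4:136143497-136145755, plus strand), the other abundant ID gene, stood at 270 and 293 in the control, 317 and 243 after Rbbp4 knockdown, 389 and 452 after Rbbp7 knockdown and 360 and 255 after the double knockdown. Its highest pair was the Rbbp7 knockdown, at a mean of 421 ± 44.7 against 282 ± 16.1 in the control (SD, n = 2), and only this pair lay wholly above the control, as 19.9% of all genes did in that comparison. The double knockdown libraries lay on either side of the control. In limma, Id3 differed between the Rbbp7 knockdown and the control by 0.57 ± 0.22 on the log2 scale, with a 95% interval of 0.07 to 1.08, an unadjusted p of 0.0295 and an adjusted p of 0.465. That did not pass, and without control replicate 1 the difference was 0.52. The Rbbp4 and double knockdowns were at −0.02 and 0.10 against the control, or −0.08 and 0.05 without that library.

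Id1 (ENSMUSG00000042745, chr2:152736251-152737410, plus strand) was a weak signal with a wide spread. Its values were 54.5 and 19.1 in the control, 35.1 and 13.4 after Rbbp4 knockdown, 30.8 and 13.6 after Rbbp7 knockdown and 43.1 and 40.8 after the double knockdown. Replicate 1 was more than 2 times replicate 2 in every group except the double knockdown, and every group overlapped the control. Leaving out control replicate 1 turned the Id1 difference of the Rbbp4 knockdown from −0.55 ± 0.68 to 0.18 ± 0.75 and that of the Rbbp7 knockdown from −0.63 ± 0.68 to 0.10 ± 0.75 on the log2 scale. That of the double knockdown went from 0.36 to 1.09.

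Id4 (ENSMUSG00000021379, chr13:48261228-48266026, plus strand), which acts in neural and mammary development, was hardly present. Its values ran from 2.37 to 15.7, with a mean of 6.78 over the 8 libraries, and it was the 1 member below the filter, so it was not tested. It shares 171 exon bases with antisense genes, and reads of the 2 strands cannot be told apart where the counting did not use strand.

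**Figure D1:**
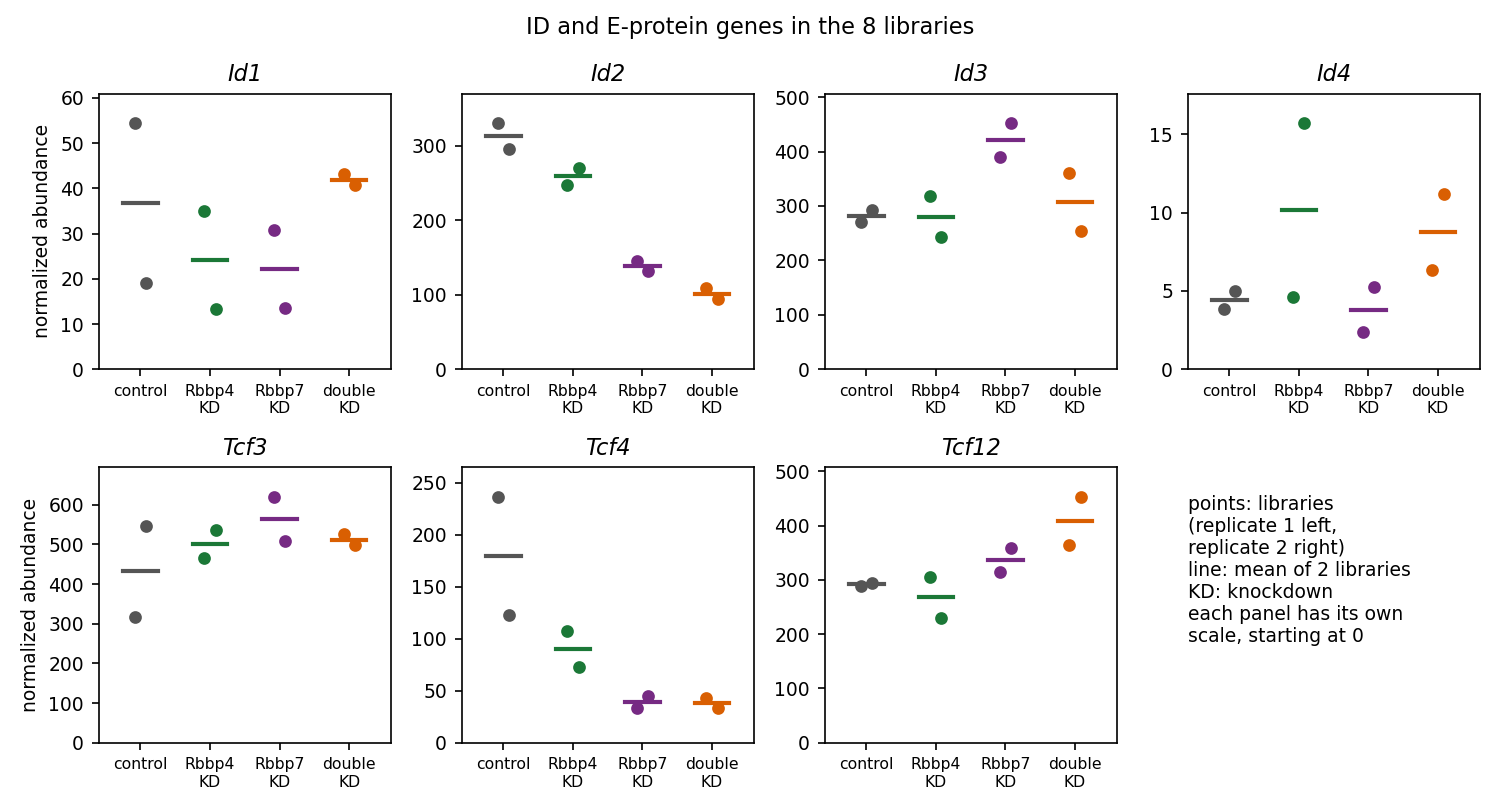
Normalized abundance (vertical axis, own scale per panel, starting at 0) of the 7 genes in the 8 libraries; points are libraries and lines the mean of 2. Id2 and Tcf4 are lower in the 4 libraries with Rbbp7 siRNA than in the 4 without, Tcf12 is higher in them, and Id1 and Tcf3 overlap between groups.

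Of the E proteins, Tcf4 showed the widest range. Tcf4 (ENSMUSG00000053477, chr18:69343356-69689079, plus strand), also called E2-2, stood at 237 and 123 in the control, 108 and 73.3 after Rbbp4 knockdown, 33.9 and 45.0 after Rbbp7 knockdown and 43.1 and 33.2 after the double knockdown. The 4 libraries with Rbbp7 siRNA again lay below the 4 without, and the Rbbp4 knockdown lay between them and the control. The control replicates differed widely, giving means of 180 ± 80.2, 90.4 ± 24.2, 39.4 ± 7.85 and 38.1 ± 6.98 (SD, n = 2 each), or 50.2%, 21.9% and 21.2% of the control in the 3 knockdown groups. The Rbbp7 and double knockdowns overlapped.

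Tcf12 (ENSMUSG00000032228, chr9:71842688-72111871, minus strand), also called HEB, split by Rbbp7 siRNA in the direction opposite to Tcf4. It stood at 289 and 295 in the control, 305 and 230 after Rbbp4 knockdown, 314 and 359 after Rbbp7 knockdown and 365 and 454 after the double knockdown. All 4 libraries with Rbbp7 siRNA lay above all 4 without it, though the margin between 305 and 314 was small. The group means were 292 ± 4.08, 268 ± 52.7, 337 ± 31.8 and 409 ± 62.7 (SD, n = 2 each). On the log2 scale the Rbbp4, Rbbp7 and double knockdowns were at −0.14, 0.20 and 0.48 against the control. Without control replicate 1 these were −0.15, 0.19 and 0.46.

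Tcf3 (ENSMUSG00000020167, chr10:80409514-80433647, minus strand), which encodes E12 and E47, had the highest level of the E proteins per kilobase of merged exons. Its values were 317 and 547 in the control, 466 and 535 after Rbbp4 knockdown, 621 and 509 after Rbbp7 knockdown and 525 and 498 after the double knockdown. The 6 knockdown libraries all lay within 466 to 621, and the low value belonged to control replicate 1. With that library its log2 differences from the control were 0.26 ± 0.24, 0.43 ± 0.24 and 0.30 ± 0.24 for the Rbbp4, Rbbp7 and double knockdowns. Without it they were −0.13, 0.04 and −0.10.

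Thus 3 of the 6 tested members separated without overlap by Rbbp7 siRNA, 2 of them lower and 1 higher. Over all genes tested, 3.43% were lower and 2.75% higher without overlap in the same split, 6.18% in either direction. The choice of Id2 and Tcf4 rested on 4 of these 8 libraries, so this count is a description. By Rbbp4 siRNA, a split that separated 7.08% of all genes, 0 of the 6 members separated.

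The libraries of the single knockdowns, whose levels the choice of members did not use, were compared by a test. Its error was fitted over all 8 libraries, including those that the choice used. The members were also chosen with earlier results of these data known. Id2 was 0.90 ± 0.21 higher on the log2 scale after Rbbp4 than after Rbbp7 knockdown, with a 95% interval of 0.43 to 1.36. Its unadjusted p of 0.00173 was the 108th smallest of 12565, and the adjusted p was 0.202 (limma, Benjamini-Hochberg over all genes tested). Tcf4 was 1.16 ± 0.40 higher, with an interval of 0.26 to 2.07, an unadjusted p of 0.0173 and an adjusted p of 0.380. Neither passed, and no member did: 0 of 6 were called between the single knockdowns, where 0.0796% of all genes, or 10, were called. At an unadjusted p under 0.05 there were 3 of 6 members, Id2, Id3 and Tcf4, and 1168, or 9.3%, of all genes. The count called in that comparison was 6 without Rbbp7 knockdown replicate 2. The interval of Id2 excludes 0 before adjustment, so the missed threshold does not show that Rbbp4 and Rbbp7 siRNA left Id2 at the same level. Separation of a pair from a pair is common here, since 22.9% of genes were higher and 22.7% lower without overlap after Rbbp4 than after Rbbp7 knockdown.

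Among the other members, Id3 was lower after Rbbp4 than after Rbbp7 knockdown by a log2 difference of −0.59 ± 0.22, with an interval of −1.10 to −0.09, an unadjusted p of 0.0254 and an adjusted p of 0.442. Id2 and Id3 therefore differed between the single knockdowns in opposite directions, neither past the threshold. Tcf12 differed by −0.34 ± 0.20 with an adjusted p of 0.669, Tcf3 by −0.17 ± 0.24 with an adjusted p of 0.890, and Id1 by 0.08 ± 0.68. For Id1 the interval of −1.45 to 1.62 leaves room for changes in either direction as large as that of Tcf4.

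**Figure D2:**
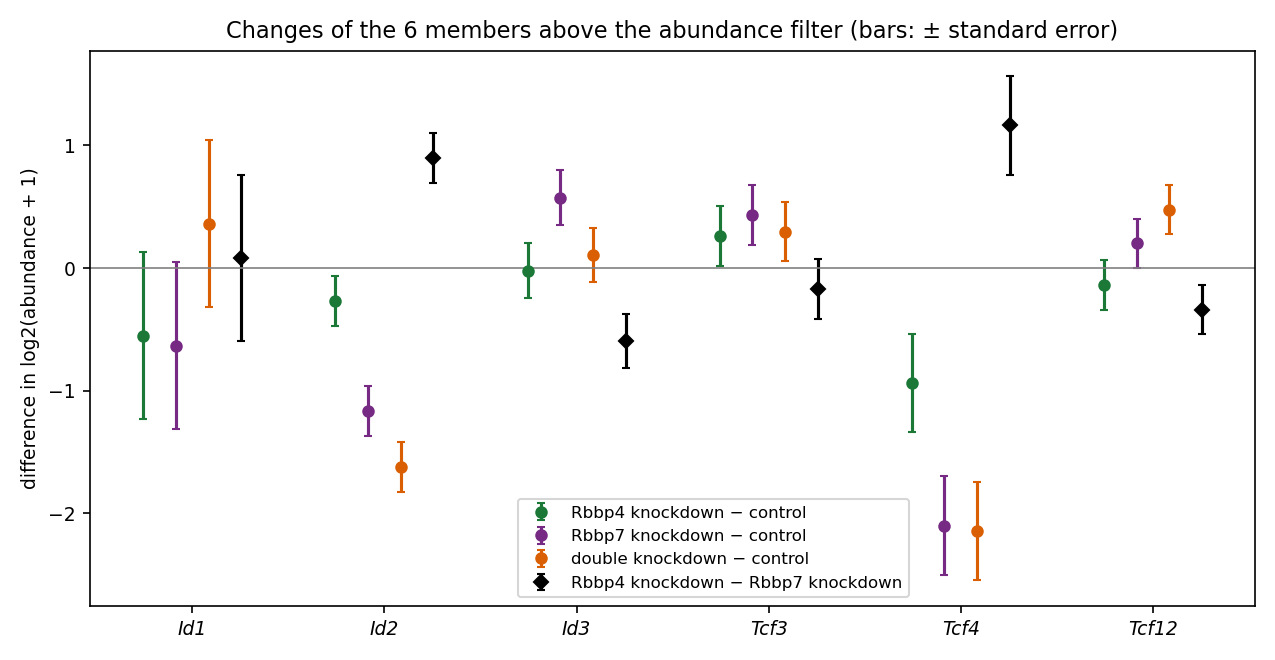
Difference in log2(abundance + 1) (vertical axis) for the 6 genes above the abundance filter, for each knockdown against the control (circles) and for the Rbbp4 against the Rbbp7 knockdown (diamonds); bars are standard errors of the limma fit. Id2 and Tcf4 have the largest positive diamonds, at 0.90 and 1.16, and Id3 the lowest, at −0.59.

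Against the shared control, Id2 was at −0.27, −1.17 and −1.62 in the Rbbp4, Rbbp7 and double knockdowns, each with a standard error of 0.21. Tcf4 was at −0.94, −2.10 and −2.15, each with a standard error of 0.40. The fitted interaction was −0.18 ± 0.29 for Id2 and 0.89 ± 0.57 for Tcf4, and Tcf4 differed by −0.05 ± 0.40 between the double and Rbbp7 knockdowns. These values contain those that chose the genes and are a description. Without control replicate 1, Id2 was at −0.19, −1.09 and −1.54, and Tcf4 at −0.47, −1.63 and −1.68.

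For the members whose level the choice did not use, 0 of 4 passed in either single knockdown against the control, where 0.0239% of all genes were called in each. The same held for the double knockdown against the Rbbp4 knockdown, with 0.0159% of genes called, against the Rbbp7 knockdown, with 0.358%, and for the interaction, with 0.00796%. At an unadjusted p under 0.05 in limma there was 1 of the 4, Id3, in the Rbbp7 knockdown against the control, beside 9.55% of all genes, and 1, Tcf12, in the double against the Rbbp4 knockdown, beside 9.57%. The nearest was Tcf12, which was 0.62 ± 0.20 higher in the double than in the Rbbp4 knockdown, with a 95% interval of 0.16 to 1.07, an unadjusted p of 0.0134 and an adjusted p of 0.406. Id3 was lower in the double than in the Rbbp7 knockdown by −0.47 ± 0.22, with an interval of −0.97 to 0.03 and an adjusted p of 0.369.

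The ID transcripts of libraries with Rbbp7 siRNA held a lower share of Id2 and a higher share of Id3, a description that rests in part on the values that chose Id2. A lower Id2 by itself raises the share of Id3. Per kilobase of merged exons, Id3 itself stood at 157 ± 9.01 in the control, 235 ± 25.0 after Rbbp7 knockdown and 172 ± 41.7 after the double knockdown (SD, n = 2). The ratio of Id2 to Id3 was 1.22 and 1.01 in the control, 0.781 and 1.11 after Rbbp4 knockdown, 0.373 and 0.292 after Rbbp7 knockdown and 0.301 and 0.368 after the double knockdown. The 4 libraries with Rbbp7 siRNA all lay under 0.4, and the Rbbp7 and double knockdowns overlapped, at means of 0.333 ± 0.0571 and 0.335 ± 0.0476 (SD, n = 2). Per kilobase of merged exons, the summed ID genes were at 334 and 303 in the control, 310 and 262 after Rbbp4 knockdown, 304 and 320 after Rbbp7 knockdown and 284 and 219 after the double knockdown. The Rbbp7 knockdown thus lay within the range of the control and Rbbp4 knockdown libraries, and double knockdown replicate 2 was the lowest. Id2 made up 40.3% ± 0.325 of that sum in the control, 37.5% ± 6.74, 18.3% ± 1.86 and 16.6% ± 1.39 in the Rbbp4, Rbbp7 and double knockdowns, while Id3 made up 49.6% ± 6.31, 54.4% ± 3.79, 75.2% ± 5.30 and 67.9% ± 4.04 (SD, n = 2).

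**Figure D3:**
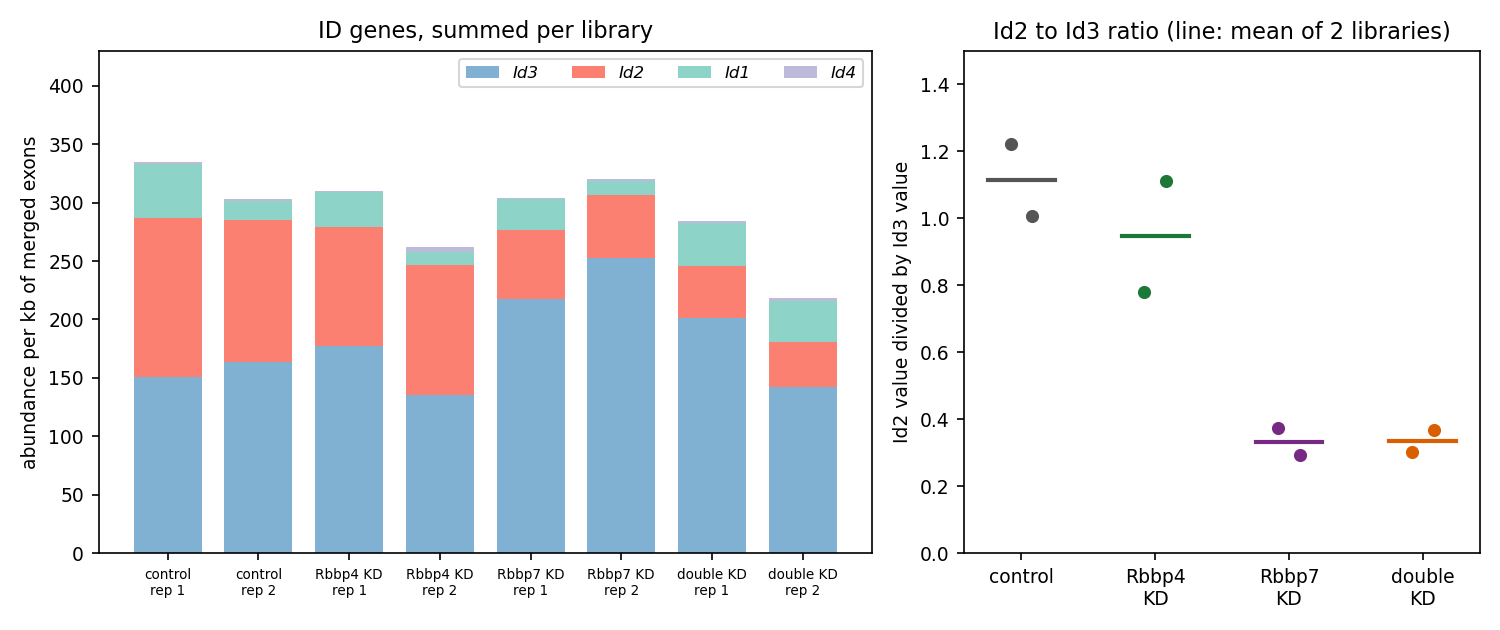
Left, abundance per kilobase of merged exons of the 4 ID genes, stacked for each of the 8 libraries; right, the ratio of Id2 to Id3 for each library (points) with group means (lines). The ratio lies between 0.292 and 0.373 in the 4 libraries with Rbbp7 siRNA and between 0.781 and 1.22 in the other 4.

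The E proteins showed a similar split between Tcf4 and Tcf12, a description that rests in part on the values that chose Tcf4. The ratio of Tcf4 to Tcf12 was 0.819 and 0.418 in the control, 0.353 and 0.318 after Rbbp4 knockdown, 0.108 and 0.125 after Rbbp7 knockdown and 0.118 and 0.0732 after the double knockdown. It was higher in both controls than in any knockdown library, and higher after Rbbp4 knockdown than in any library with Rbbp7 siRNA. How often the ratios of other gene pairs separate in this way was not counted. The summed E proteins per kilobase ran from 106 to 175, the lowest being control replicate 1, and Tcf3 made up 79.7% to 85.7% of them as group means. With the median length of protein-coding transcripts in place of merged exons, Tcf3 made up 39.9% to 53.8%, and in the double knockdown Tcf3 and Tcf12 were level, at 181 ± 6.68 and 181 ± 27.8 per kilobase (SD, n = 2).

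Per kilobase of merged exons in the control, the order of levels was Id3 at 157 ± 9.01, Id2 at 128 ± 10.04, Tcf3 at 107 ± 40.2, Id1 at 31.7 ± 21.5, Tcf12 at 18.8 ± 0.263, Tcf4 at 6.58 ± 2.93 and Id4 at 1.15 ± 0.219 (SD, n = 2). In the control libraries Tcf3, at 78.5 and 135.4, overlapped Id2, at 135.5 and 121.3, and lay below Id3, at 151.0 and 163.8. The control libraries of Id1 and Tcf12 overlapped. After Rbbp7 knockdown Id3 stood at 235 ± 25.0 and Id2 at 56.9 ± 3.76 per kilobase. The order rests on the length used, since Tcf4 has 62 annotated transcripts and 27382 merged exon bases. With the median length of protein-coding transcripts, Id2 came first in the control at 247 ± 19.3, followed by Id3 at 221 ± 12.6, and Tcf4, at 97.8 ± 43.6, stood above Id1, at 35.1 ± 23.9.

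The BMP pathway, the best known input of ID genes, was described from lists of ligands, receptors, SMADs and antagonists. Counts of list genes at an unadjusted p under 0.05, given below, stand beside 5.86%, 9.55% and 17.3% of all genes in the Rbbp4, Rbbp7 and double knockdowns against the control. In the other 4 comparisons that share was 6.49% to 15%. Of 8 tested ligands, 0 were called in any of the 7 comparisons in limma and at most 1 had an unadjusted p under 0.05 in each, with a median log2 difference of −0.21, −0.03 and 0.14 in the Rbbp4, Rbbp7 and double knockdowns against the control, where the medians of all genes were 0.00, 0.01 and 0.00. The ligand medians were 0.09, 0.12 and 0.34 without control replicate 1. Bmp2, a ligand that activates SMAD signalling, stood at 2.55 and 12.0 in the control, 10.1 and 18.9, 16.6 and 20.9 in the single knockdowns and 55.9 and 34.7 in the double knockdown. The double knockdown libraries lay above the other 6, an arrangement not counted over all genes. In limma their log2 difference from the control was 2.73 ± 0.74 with an adjusted p of 0.113, or 1.79 without control replicate 1. Gdf3, the ligand with the highest level, stayed within 155 to 258.

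Of 8 tested BMP receptors and co-receptors, 0 were called and at most 1 in each comparison had an unadjusted p under 0.05, with medians of −0.09, −0.28 and −0.37, or −0.17, −0.21 and −0.27 without control replicate 1. Bmpr1a, the main type I BMP receptor, stayed within 1114 to 1339 in the 8 libraries. Acvrl1, a type I receptor known from blood vessels, stood at 10.3 and 3.56 in the control, 15.0 and 24.6 after Rbbp4 knockdown, 3.67 and 12.7 after Rbbp7 knockdown and 63.0 and 67.5 after the double knockdown. The 4 libraries with Rbbp4 siRNA lay above the 4 without it, as for 3.5% of all genes. The double knockdown lay above every other library, an arrangement not counted over all genes. In limma the log2 difference from the control was 1.49 after Rbbp4 knockdown, with an adjusted p of 0.8525. It was 3.20 ± 0.75 after the double knockdown, with an adjusted p of 0.0841. Without control replicate 1 these differences were 2.15 and 3.86. Of the 3 tested SMADs that carry the signal, 0 were called and at most 1 had an unadjusted p under 0.05. Smad5 stood at 132 and 129 in the control and 33.4 and 65.5 in the double knockdown, a log2 difference of −1.46 ± 0.42 with an adjusted p of 0.128. Smad4, the shared partner, differed by −0.34 ± 0.22, and Smad1 by 0.38 ± 0.32. Smad5, Smad4 and Smad1 were at −1.44, −0.39 and 0.30 without control replicate 1.

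Among 11 tested BMP antagonists and inhibitory SMADs, 1 gene was called, Twsg1, higher in the double knockdown than in the control, where 1.15% of all genes were called and 0.645% were called higher. Twsg1, a secreted protein that binds BMPs together with chordin, stood at 48.4 and 35.1 in the control, 112 and 90.4 after Rbbp4 knockdown, 52.2 and 41.8 after Rbbp7 knockdown and 183 and 155 after the double knockdown. The 4 libraries with Rbbp4 siRNA lay above the 4 without it, an arrangement that held for 3.5% of all genes. The double knockdown differed from the control by 2.0 ± 0.32 on the log2 scale with an adjusted p of 0.0268. The call was lost, at adjusted p values of 0.0568 to 0.133, when any 1 library of the control, the Rbbp4 knockdown or the double knockdown was left out, and held without either library of the Rbbp7 knockdown. It was also lost with no variance trend, at 0.0665, and with only the groups compared, at 0.125. Nog, which encodes the BMP antagonist noggin, stood at 22.8 and 23.1 in the control and 70.6 and 73.0 in the double knockdown, with an adjusted p of 0.103. Smad7, an inhibitory SMAD induced by the pathway, differed by −0.46 ± 0.22 after Rbbp7 knockdown with an adjusted p of 0.559. Without control replicate 1, Nog in the double knockdown was at 1.60 with an adjusted p of 0.212, and Smad7 after Rbbp7 knockdown at −0.53 with an adjusted p of 0.657.

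**Figure D4:**
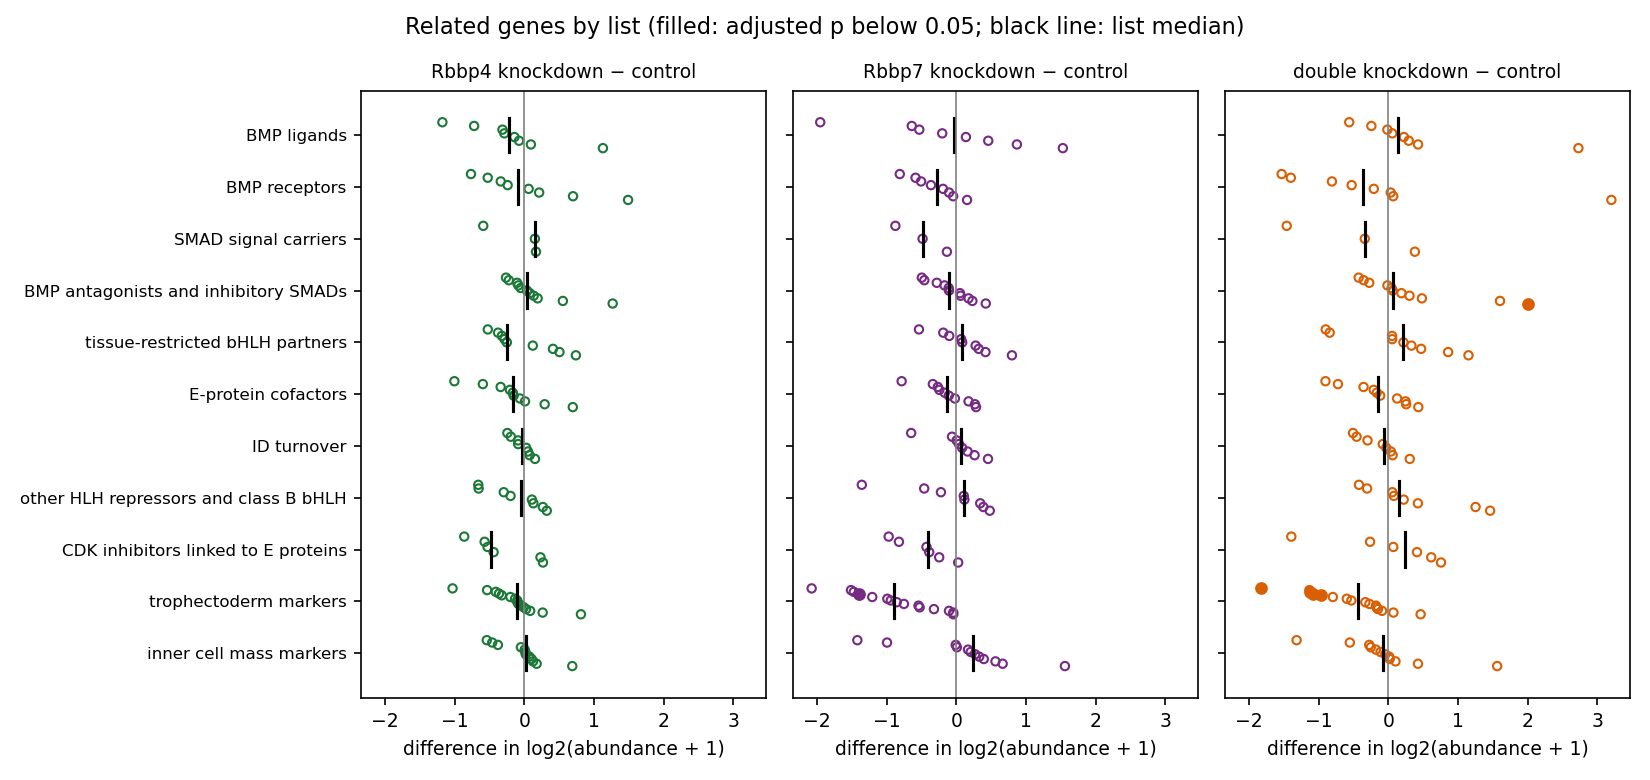
Difference in log2(abundance + 1) from the control (horizontal axes) of the tested genes of 11 lists in the 3 knockdown groups; filled points have an adjusted p below 0.05 and black lines are list medians. Twsg1 is the filled point among the antagonists, at 2.0, and all 16 trophectoderm markers lie below 0 after Rbbp7 knockdown.

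Tissue-restricted basic helix-loop-helix genes are the E proteins' other partners. Only 9 of the 29 in the table were above the filter, and 0 were called in any of the 7 comparisons, with at most 4 at an unadjusted p under 0.05. Hand1, a trophoblast factor that dimerizes with E proteins, had the highest level per kilobase among them in the control. Its values were 722 and 651 in the control, 528 and 570 after Rbbp4 knockdown, 1005 and 837 after Rbbp7 knockdown and 1114 and 812 after the double knockdown. Its 4 libraries with Rbbp7 siRNA all lay above the 4 without, as for 2.75% of all genes, and its log2 difference between the Rbbp4 and Rbbp7 knockdowns was −0.74 ± 0.18 with an adjusted p of 0.215. Tcf15, a partner of E proteins in the early epiblast, stood at 223 and 263 in the control and 150 and 121 in the double knockdown, a log2 difference of −0.84 ± 0.22 with an adjusted p of 0.103, or −0.96 and 0.176 without control replicate 1. Of 8 tested genes on a list of other helix-loop-helix repressors and class B genes, 0 were called and at most 3 had an unadjusted p under 0.05. Bhlhe41, a circadian repressor, was at 49.6 to 74.4 in the control, 41.1 to 46.9 after Rbbp7 knockdown and 113 to 254 in the double knockdown, where it was 1.92 ± 0.45 above the Rbbp7 knockdown on the log2 scale with an adjusted p of 0.102.

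No gene passed among cofactors, turnover genes and cell cycle inhibitors. Of 10 tested E-protein cofactors 0 were called and at most 2 had an unadjusted p under 0.05. Cbfa2t3, a corepressor of the ETO family, was at −1.0 ± 0.29 after Rbbp4 knockdown with an adjusted p of 0.723, or −0.96 and 0.840 without control replicate 1. Of 8 tested genes of ID protein turnover 0 were called, with at most 2 at an unadjusted p under 0.05 and medians of −0.03, 0.06 and −0.05 against the control, or 0.02, 0.03 and −0.11 without control replicate 1. Skp2, a ubiquitin ligase subunit of the cell cycle, had the smallest p of the list. It stood at 1114 and 994 in the control, 872 and 906 after Rbbp4 knockdown, 1530 and 1360 after Rbbp7 knockdown and 843 and 867 after the double knockdown. Its Rbbp7 knockdown libraries were the highest, an arrangement not counted over all genes. In limma it was lower in the double than in the Rbbp7 knockdown at −0.75 ± 0.13 on the log2 scale with an adjusted p of 0.0567. Usp1, the deubiquitinase that stabilizes ID proteins, differed by 0.04 ± 0.22 in the double knockdown, or 0.08 without control replicate 1. Its cofactor Wdr48 stood at 939 and 780 in the control, 805 and 805 after Rbbp4 knockdown, 532 and 560 after Rbbp7 knockdown and 645 and 562 after the double knockdown. Its 4 libraries with Rbbp7 siRNA lay below the 4 without, as for 3.43% of all genes, and its log2 difference from the control after Rbbp7 knockdown was −0.65 ± 0.15 with an adjusted p of 0.219. That difference was −0.51 with an adjusted p of 0.446 without control replicate 1. Of 6 tested inhibitors of cyclin-dependent kinases, a class that E proteins can switch on, 0 were called and at most 2 had an unadjusted p under 0.05. Cdkn1a, which had the highest level per kilobase, stood at 4284 and 4415 in the control and 2539 and 2252 after Rbbp4 knockdown, a log2 difference of −0.86 ± 0.21 with an adjusted p of 0.628, or −0.88 and 0.777 without control replicate 1.

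Markers of the trophectoderm, where Id2 is known to be active, were lower in the libraries with Rbbp7 siRNA, as Id2 was. In bulk embryos, fewer cells of a type and less RNA per cell cannot be told apart. The summed level of 17 trophectoderm markers, Id2 not among them, was 47746 and 51529 in the control, 47555 and 42085 after Rbbp4 knockdown, 26622 and 30406 after Rbbp7 knockdown and 35714 and 35177 after the double knockdown. The sum was lower in all 4 libraries with Rbbp7 siRNA than in the other 4, but unlike Id2 it was lower in the Rbbp7 than in the double knockdown. After Rbbp7 knockdown 16 of 16 tested markers had negative log2 differences, with a median of −0.90, and 1 passed. Over all genes 51.4% of these differences were positive and 0.0239% of genes were called. At an unadjusted p under 0.05 in limma there were 10 of the 16, beside 9.55% of all genes. Without control replicate 1, 15 of 16 markers had negative differences, with a median of −0.93. The gene that passed was Fabp3, a fatty acid-binding protein, which fell by 1.40 on the log2 scale with an adjusted p of 0.0176. Between the single knockdowns 14 of 16 markers were higher after Rbbp4 knockdown, beside 49.6% of all genes, with a median of 0.69. Fabp3 passed there at 1.08 ± 0.15 with an adjusted p of 0.0456, where 0.0637% of all genes were called higher. Without control replicate 1 these adjusted p values were 0.101 and 0.0819. Without Rbbp4 knockdown replicate 1 they were 0.0547 and 0.197, without Rbbp4 knockdown replicate 2 0.0631 and 0.297, and without Rbbp7 knockdown replicate 2 0.143 and 0.268. The second was also lost without control replicate 2, at 0.0821, and without either double knockdown library, at 0.0667 and 0.0664. With no variance trend they were 0.291 and 0.265, and with only the groups compared 0.152 and 0.0952. In the double knockdown against the control 14 of 16 markers had negative differences, with a median of −0.43, where 49.9% of all genes had positive ones. Of the markers 4 were called lower, where 0.501% of all genes were. Plet1, a surface protein of the trophoblast, fell by 1.83 on the log2 scale with an adjusted p of 0.0114, and Atp1b1, a subunit of the sodium pump, fell by 1.13 with an adjusted p of 0.0144. Krt18, a keratin, fell by 1.08 with an adjusted p of 0.0358, and Fabp3 fell by 0.97 with an adjusted p of 0.0243. The Plet1 call held without any 1 library, and Atp1b1 lost its call without double knockdown replicate 2, at 0.0579. Krt18 lost it without any 1 of the 8 libraries, at 0.0521 to 0.146, and Fabp3 without any 1 of the control, Rbbp4 knockdown or double knockdown, at 0.0509 to 0.0858. Krt18 also lost its call with quantile normalization, at 0.0506. With no variance trend or only the groups compared all 4 calls were lost, at 0.0666 to 0.131. The median was −0.70 and 3 markers were called lower without control replicate 1. The part of the marker level in the Id2 and Tcf4 values was not tested.

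After Rbbp7 knockdown, where 51.4% of all genes had positive differences, 9 of 12 inner cell mass markers did, with a median of 0.24. Without control replicate 1 these were 8 and 0.11. Of these markers 0 passed there and 4 had an unadjusted p under 0.05 in limma, where 9.55% of all genes did. In the double knockdown against the control 5 of the 12 had positive differences, where 49.9% of all genes did, and 0 were called. Their median there was −0.08, or −0.10 without control replicate 1. In the double against the Rbbp7 knockdown 1 was called, Nanog, a pluripotency factor, which stood at 9093 and 10156 after Rbbp7 knockdown, 4192 and 4692 after the double knockdown and 6051 to 6698 in the other libraries. It fell by 1.11 on the log2 scale with an adjusted p of 0.00916, where 0.358% of all genes were called. The call was lost without Rbbp7 knockdown replicate 2, at 0.107, with no variance trend, at 0.0773, and with only the groups compared, at 0.107. Markers of cumulus and granulosa cells, which surround the egg, summed to 277 and 314 in the control, 315 and 420 after Rbbp4 knockdown, 491 and 424 after Rbbp7 knockdown and 578 and 442 after the double knockdown. Of 14 such markers 8 were in the table, and the defining genes Amh, Inha and Cyp11a1 were at most 6.29, 3.71 and 2.76 in any library. Foxl2, another, stood at 101 and 74.4 in the double knockdown and at 12.0 to 33.8 elsewhere. The sum was led by Hsd17b1, at 125 in both control libraries and 264 and 301 after Rbbp7 knockdown. The macrophage gene Cd68 ran from 137 to 395, with its highest value in control replicate 1, while the red cell genes Hba-a1 and Alas2 were at most 24.4 and 1.54. Their part in the results was not tested.

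The genes whose levels followed Id2 and Tcf4 most closely were named by Pearson's r of log2 values over the 8 libraries, as a description in which the libraries share the knockdown groups. For Id2 these were Cpxm1 with r = 0.984, Stk24 with 0.978, Rbpms2 with 0.973, Prc1 with 0.967 and Prpsap1 with 0.962. Cpxm1, a carboxypeptidase-like secreted protein, ran through 247 and 207, 150 and 169, 86.2 and 77.4, and 53.9 and 63.2 in the control, Rbbp4, Rbbp7 and double knockdown libraries, the same order of groups as Id2. Prc1, which bundles microtubules in the dividing cell, stayed at 2790 to 2938 in the 4 libraries without Rbbp7 siRNA and 1849 to 2311 in those with it. For Tcf4 the closest were Gm6969 with r = 0.980, which shares near-identical sequence with Cox7a2l and is uncertain, Lama3 with 0.970, Cav2 with 0.965, Cdc42ep2 with 0.963 and Surf4 with 0.959. Lama3, a laminin chain of the basement membrane, stood at 550 and 433 in the control, 448 and 342 after Rbbp4 knockdown, 241 and 282 after Rbbp7 knockdown and 245 and 278 after the double knockdown. Id2 and Tcf4 had r = 0.902 with each other, but they were chosen because both were lower in the double knockdown. Id2 and Tcf12 had r = −0.836, Tcf3 and Tcf4 r = −0.736, Tcf4 and Tcf12 r = −0.571, and Id2 and Id3 r = −0.422. Each of these pairs includes a gene that chose the part.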

How the data were processed

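Polyadenylated RNA of 8 libraries in 4 groups was measured. Per the submitters' processing notes, Trimmomatic, HISAT2, featureCounts and DESeq2 were used with the mouse build GRCm38. Settings, versions and the use of strand are not stated. The deposited table holds a signal, gene abundance normalized between libraries by the authors, not raw counts. Whole reads could not be recovered, so depth is unknown and no count model was fitted. The table held 0 columns of other samples. Of 19058 identifiers, 18942 matched a symbol.

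Values were analysed as log2(value + 1), which understates changes of low genes. Genes with a mean of at least 10 were tested (12565, with 6493 left out). All 8 libraries entered 1 linear model with 1 mean per group in limma 3.58.1 (R 4.3.3), with a trended variance prior, 4 residual and 5.18 prior degrees of freedom and two-sided tests. P-values were Benjamini-Hochberg adjusted over all genes tested within each of 7 comparisons, and an adjusted p below 0.05 was called. The interaction subtracts both single knockdowns' changes from that of the double knockdown. The code was tested on simulated data. Errors of log2 changes are standard errors, and errors of means are SDs with n = 2. The members and gene lists were chosen with earlier results of these data known. Named genes were the 7 members, the targets, the genes called in each list, and others drawn from the up to 4 with the smallest p and up to 4 with the highest level per list. For Id2 and Tcf4 the 5 genes with the highest correlation were added. Gene positions and lengths come from GENCODE on GRCm38, near-identical sequence from BLAST+ 2.17.0 at 97% identity over at least 100 bases, and figures from matplotlib 3.10.9. Alternatives were a pseudocount of 8, no filter, a minimum mean of 50, quantile and TMM scaling, no variance trend, only the groups compared, the replicate number as a block, and leaving out each library.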

Additional observations from a re-analysis of the deposited data

How the results depend on the processing

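Id2 kept the sign of each difference under every alternative run, and Tcf4 did except between the double and Rbbp7 knockdowns. Between the single knockdowns Id2 ranged from 0.83 to 0.96 (log2) and Tcf4 from 0.89 to 1.44, with adjusted p of 0.171 to 0.823 and 0.283 to 1, and neither passed under any of 16 alternatives. Tcf4 against the control moved with either control library, the double knockdown from −2.62 to −1.68 and the Rbbp4 knockdown from −1.41 to −0.47. Leaving out 1 library turned the sign of several small differences. Id1 ranged from −0.37 to 1.09 (double against control), −1.28 to 0.18 (Rbbp4 knockdown against control), −1.36 to 0.10 (Rbbp7 knockdown against control) and −0.58 to 0.75 (Rbbp4 against Rbbp7 knockdown). Id3 ranged from −0.14 to 0.35 (double against control), −0.12 to 0.37 (double against Rbbp4 knockdown) and −0.21 to 0.17 (Rbbp4 knockdown against control). Tcf3 ranged from −0.10 to 0.69 (double against control), −0.065 to 0.13 (double against Rbbp4 knockdown), −0.28 to 0.0076 (double against Rbbp7 knockdown) and −0.13 to 0.65 (Rbbp4 knockdown against control). Tcf12 ranged from −0.34 to 0.063 (Rbbp4 knockdown against control) and Tcf4 from −0.24 to 0.15 (double against Rbbp7 knockdown).

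Counts of called genes depended on the settings. For the double knockdown against the control, 144 became 10 with no trend, 2 with only the groups compared, and 27 to 99 without 1 library. Against the Rbbp4 knockdown, 2 became 4 with a pseudocount of 8 and 2 to 13 without 1 library. Against the Rbbp7 knockdown, 45 became 78 with a minimum mean of 50, 5 with no trend, 1 with only the groups compared and 5 to 42 without 1 library. For the Rbbp7 knockdown against the control, 3 became 7 with a pseudocount of 8, 6 with a minimum mean of 50 and 1 to 38 without 1 library, where 38 came without control replicate 2. For the Rbbp4 knockdown against the control, 3 became 2 to 36, where 36 came without control replicate 2. Between the single knockdowns, 10 became 18 with only the groups compared and 6 to 15 without 1 library, and for the interaction 1 became 1 to 21, where 21 came without control replicate 2. The cause was not tested.

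With the replicate number as a block, 113, 2, 30, 2, 3 and 12 genes were called for the double knockdown against the control, the Rbbp4 and the Rbbp7 knockdown, for the Rbbp4 and Rbbp7 knockdowns against the control, and between the single knockdowns. After each group's mean was subtracted, same-numbered libraries of different groups correlated at −0.0221 to 0.051 over the genes tested. What the shared number stands for is not stated. Of the calls given for Twsg1, Fabp3, Plet1, Atp1b1, Krt18, Nanog and the targets, Fabp3 between the single knockdowns was the 1 lost under the block, at an adjusted p of 0.0619. Depth is unknown, which limits what can be said of Id1 and Id4.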
